A study of Mus musculus with 8 samples.

Results

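The 7 inhibitory receptor genes Pdcd1, Lag3, Havcr2, Tigit, Ctla4, Cd160 and Entpd1 were followed in T cells sorted from mouse bone marrow. They were taken by their gene symbols, and each symbol matched 1 of the 32285 genes in the count matrices. Over all 53033 cells kept, Ctla4 had 53490 unique molecular identifiers (UMIs, each standing for 1 captured mRNA molecule), Tigit 51107, Cd160 29211, Lag3 23470, Pdcd1 12883, Entpd1 6797 and Havcr2 2976.

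Inhibitory receptors are surface proteins that dampen a T cell after its antigen receptor has been engaged. PD-1 (Pdcd1) and TIGIT signal through inhibitory motifs in their cytoplasmic tails. CD160 binds HVEM, and CTLA-4 competes with the costimulatory receptor CD28 for CD80 and CD86. LAG-3 binds MHC class II, TIM-3 (Havcr2) binds galectin-9 and phosphatidylserine, and CD39 (Entpd1) degrades extracellular ATP on the path to adenosine. Cd8 T cells that meet antigen for a long time, as in tumours, are known to carry several of these receptors at once, whereas regulatory T cells, marked by the transcription factor Foxp3, carry CTLA-4, TIGIT and CD39 as part of their normal programme.

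The cells came from 2 groups of C57BL/6 mice with the Runx1Runx1t1/+ knock-in allele, a model of acute myeloid leukaemia with the RUNX1::RUNX1T1 fusion. In the Runx1::Runx1t1 group the allele was joined by Mx1-Cre, a recombinase under an interferon-responsive promoter that acts in many haematopoietic cells. The control group lacked Mx1-Cre and is labelled WT. All mice were given Poly(I:C), which mimics viral RNA and induces interferon, 4 times on alternate days at 5 mg/kg. Marrow was taken 4 weeks later. Each group held 2 libraries, called replicates here, and each library pooled the marrow T cells of 2 mice, so single mice cannot be told apart. Mice of the groups were sex-matched littermates. T cells were enriched by negative selection and sorted as DAPI-, CD3+ and mCherry-. mCherry is the reporter of the fusion, so the cells measured are T cells without the reporter and the fusion itself could not be checked in them. Effects of Cre and of the fusion cannot be told apart. Ages of the mice are not given in the sources used here.

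The 4 libraries held between 90958101 and 102883449 UMIs, with a median of 6239 to 6368 UMIs per barcode, and 1425 kept barcodes occurred in more than 1 library. T cells were divided by the UMIs of 4 genes that are not among the receptors: 26481 Cd8 T cells (Cd8a or Cd8b1, without Cd4 and Foxp3), 5784 Cd4 T cells (Cd4 alone), 2633 Foxp3 T cells (Foxp3, without Cd8a and Cd8b1) and 13002 co-receptor-negative T cells (none of the 4). Only 1 Cd4 UMI was found in 38.6% and 34.4% of Cd4 T cells of Runx1::Runx1t1 replicates 1 and 2 and 46.6% and 52.1% of control replicates 1 and 2. Foxp3 T cells with only 1 Foxp3 UMI were 26.4% and 25.2% against 32.2% and 36.1%. Cells with an undetected gating gene can thus sit in the co-receptor-negative class, or in the Cd4 class where Foxp3 was missed. Their part in the results was not tested. T cell markers (Cd3d, Cd3e, Cd3g, Trac, Trbc1 and Trbc2 together) were at 2837 to 4454 CPM (UMI counts-per-million of a class in a replicate) in every class of every replicate. The groups differed in class sizes: co-receptor-negative cells were 18.6% and 12.8% of cells in Runx1::Runx1t1 replicates 1 and 2 and 35.6% and 31.4% in control replicates 1 and 2. They also differed in traces of other cells. The mast and progenitor markers Kit, Cd34, Cpa3 and Gata2 together were at 42.8 to 548 CPM over the 4 classes in the Runx1::Runx1t1 replicates against 3.20 to 40.5 in the controls. The natural killer cell markers Ncr1, Klrb1c, Klre1, Tyrobp and Klri2 together were at 14.4 to 501 against 141 to 866. The myeloid markers S100a8, S100a9, Lyz2, Elane and Mpo together were at 11.6 to 139 against 66.2 to 1559. The part of these traces in the results was not tested.

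On the genome (GRCm38), Pdcd1 lies on chromosome 1 at chr1:94038305-94052553 on the minus strand, Lag3 at chr6:124904361-124911705 on the minus strand and Havcr2 at chr11:46454935-46481255 on the plus strand. Tigit lies at chr16:43648867-43664146 on the minus strand, Ctla4 at chr1:60887000-60915832 on the plus strand, Cd160 at chr3:96798763-96829351 on the minus strand and Entpd1 at chr19:40612366-40741602 on the plus strand. The spans of Ctla4 and Entpd1 overlap other annotated genes on the same strand (Rpl18-ps1 in Ctla4, and Gm16027, Gm8783 and AC166063.1 in Entpd1). Whether exons overlap and whether this affected the counts of Ctla4 and Entpd1 was not tested.

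The 250 bases before the RefSeq start (GRCm38.p6, written 5′ to 3′ on the gene's strand) are shown for Pdcd1, Havcr2 and Tigit, as examples of the 6 receptors that the table holds. The RUNX core was searched because it is the site of RUNX1, whose DNA-binding domain the fusion keeps, although the cells were sorted as lacking the fusion's reporter. Capitals mark the RUNX core TGTGGT, the NFAT core GGAAA and the AP-1 motif TGANTCA, on either strand.
Pdcd1, chr1:94052554-94052803, minus strand: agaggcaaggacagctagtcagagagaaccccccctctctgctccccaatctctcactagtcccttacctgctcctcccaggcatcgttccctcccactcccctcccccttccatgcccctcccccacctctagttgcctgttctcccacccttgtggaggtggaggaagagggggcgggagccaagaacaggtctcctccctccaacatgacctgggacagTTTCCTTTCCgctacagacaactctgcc
Havcr2, chr11:46454681-46454930, plus strand: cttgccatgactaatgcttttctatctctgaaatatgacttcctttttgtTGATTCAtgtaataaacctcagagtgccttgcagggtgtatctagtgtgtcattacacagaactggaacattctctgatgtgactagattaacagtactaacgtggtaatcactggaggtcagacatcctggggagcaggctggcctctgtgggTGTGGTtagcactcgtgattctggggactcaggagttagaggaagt
Tigit, chr16:43664185-43664434, minus strand: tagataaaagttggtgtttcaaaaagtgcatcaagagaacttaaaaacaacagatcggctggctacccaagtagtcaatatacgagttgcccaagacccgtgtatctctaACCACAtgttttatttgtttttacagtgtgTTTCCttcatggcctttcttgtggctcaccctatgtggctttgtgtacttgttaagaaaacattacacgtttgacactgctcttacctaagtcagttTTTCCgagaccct
The Pdcd1 window held 2 NFAT cores, the Havcr2 window 1 RUNX core and 1 AP-1 motif, and the Tigit window 1 RUNX core and 2 NFAT cores. Of the receptors not printed, Ctla4 had no RUNX core and 1 NFAT core, Cd160 1 RUNX core in each of its 2 windows, and Entpd1 no RUNX core in its 2 windows. Of 32851 windows of the same length in the table, 14.05% held the RUNX core, 55.6% the NFAT core and 6.75% the AP-1 motif. A match describes letters and is not a measured binding site.

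Each class had its own receptor profile. In Foxp3 T cells, Ctla4 reached 1267 and 1183 CPM in Runx1::Runx1t1 replicates 1 and 2 and 903 and 672 in control replicates 1 and 2, the highest of the 4 classes in each replicate. In Cd4 T cells it was at 334 and 322 against 352 and 211, in Cd8 T cells at 76.8 and 166 against 38.9 and 27.0, and in co-receptor-negative T cells at 116 and 130 against 30.3 and 26.3. The order Foxp3 above Cd4 above the remaining classes therefore held in all 4 replicates. Compared within replicates by edgeR's quasi-likelihood test on the summed UMIs of each class, Ctla4 was higher in Foxp3 than in Cd4 T cells by 1.64 ± 0.31 on the log2 scale (± SE, n = 4 replicates per class, adjusted p = 0.00154) and higher in Cd4 than in Cd8 T cells by 2.03 ± 0.32 (adjusted p = 0.000169). Co-receptor-negative and Cd8 T cells differed by -0.21 without passing (adjusted p = 0.655). Such p-values measure only the spread between the pooled replicates. Tigit followed the same classes, at 506 and 429 against 394 and 284 CPM in Foxp3 T cells and 377 and 388 against 189 and 118 in Cd4 T cells. It was higher in Cd4 than in Cd8 T cells by 1.27 ± 0.34 (adjusted p = 0.00915), while Foxp3 and Cd4 T cells differed by 0.71 ± 0.35 without passing the threshold (adjusted p = 0.1601).

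Cd160, which is also found on natural killer and gamma-delta T cells, ran in the opposite order. It was at 114 and 98.0 CPM in co-receptor-negative T cells of Runx1::Runx1t1 replicates 1 and 2 and at 146 and 170 in those of control replicates 1 and 2, and at 69.9 and 95.6 against 59.7 and 85.9 in Cd8 T cells. Cd4 T cells held 30.7 and 30.5 against 41.8 and 39.0, and Foxp3 T cells 6.64 and 5.37 against 15.3 and 13.2, from 22 to 33 UMIs per replicate. In each replicate the order was thus co-receptor-negative, Cd8, Cd4 and Foxp3 T cells. Cd160 was lower in Foxp3 than in Cd4 T cells (log2 difference -2.00 ± 0.27, adjusted p = 0.000109), lower in Cd4 than in Cd8 T cells (-1.41 ± 0.17, adjusted p = 1.69e-05) and higher in co-receptor-negative than in Cd8 T cells (0.56 ± 0.15, adjusted p = 0.0124). The last call was lost without Runx1::Runx1t1 replicate 1, control replicate 1 or control replicate 2 (adjusted p = 0.0740, 0.0665 and 0.108). In co-receptor-negative T cells the gamma-delta markers Trdc, Tcrg-C1, Tcrg-C2 and Tcrg-C4 together stood at 167 to 198 CPM and the natural killer markers at 382 to 866, against 20.5 to 34.5 and 68.9 to 190 in Cd8 T cells.

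Pdcd1 was at 92.2 and 94.6 CPM in Cd4 T cells of the Runx1::Runx1t1 replicates and at 66.2 and 36.7 in those of the controls, and Lag3 at 215 and 220 against 76.1 and 22.2. In Cd8 T cells, Pdcd1 was at 24.8 and 101 against 3.68 and 3.14, and Lag3 at 43.8 and 188 against 7.06 and 5.64. Foxp3 T cells held 56.6 and 47.8 CPM of Pdcd1 against 76.5 and 48.4, more than the Cd4 T cells in both controls and less in both Runx1::Runx1t1 replicates. Runx1::Runx1t1 replicate 2 was the only replicate in which Cd8 T cells held as much Pdcd1 as Cd4 T cells. Both were higher in Cd4 than in Cd8 T cells in the fit over all replicates (Pdcd1 by 1.58 ± 0.59, adjusted p = 0.0493, and Lag3 by 1.49 ± 0.45, adjusted p = 0.0175). Neither call held without Runx1::Runx1t1 replicate 1, control replicate 1 or control replicate 2 (adjusted p = 0.173 to 0.189 for Pdcd1 and 0.0624 to 0.159 for Lag3). Entpd1 was higher in Cd4 than in Cd8 T cells by 1.02 ± 0.29 (adjusted p = 0.0120), a call lost without Runx1::Runx1t1 replicate 1 (adjusted p = 0.0911) or control replicate 2 (adjusted p = 0.0584), and the Tigit call was lost without Runx1::Runx1t1 replicate 1 (adjusted p = 0.0720). Havcr2 did not separate Cd4 from Cd8 T cells (0.32 ± 0.47, adjusted p = 0.645).

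Between Cd4 and Cd8 T cells 6 of the 7 receptors passed the threshold, where 37.1% of all 12531 genes tested did. Between Foxp3 and Cd4 T cells 2 passed (Ctla4 and Cd160), against 24.4% of all genes, and between co-receptor-negative and Cd8 T cells 2 passed (Cd160 higher and Lag3 lower), against 28.9%. Lag3 was lower in co-receptor-negative T cells by 1.67 on the log2 scale (-1.67 ± 0.49, adjusted p = 0.0187), a call lost without Runx1::Runx1t1 replicate 1 (adjusted p = 0.0935) and with 1 cell per clonotype (adjusted p = 0.0747). In the remaining pairs of classes, 4 receptors passed between Foxp3 and Cd8 T cells (50.9% of all genes), 7 between co-receptor-negative and Cd4 T cells (27.3%) and 5 between Foxp3 and co-receptor-negative T cells (41.5%).

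**Figure D1:**
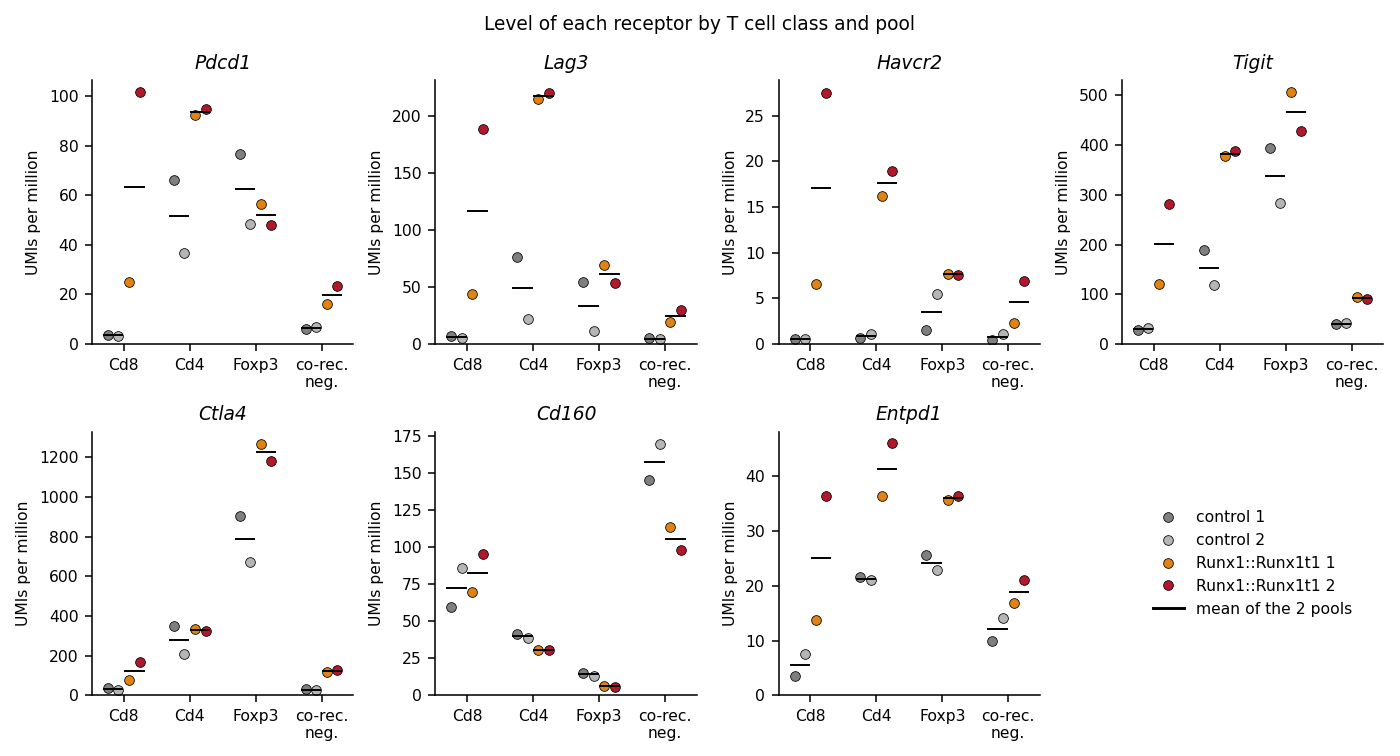
CPM of the 7 receptors (1 panel each, y axis) in Cd8, Cd4, Foxp3 and co-receptor-negative T cells (x axis); points are the 4 replicates (pools), each in its own colour, and bars are the mean of the 2 replicates of a group. Ctla4 and Tigit stand highest in Foxp3 T cells, Cd160 stands highest in co-receptor-negative T cells, and Runx1::Runx1t1 replicate 2 stands above replicate 1 for every receptor in Cd8 T cells.

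The comparison of the groups asked whether T cells from marrow with the fusion carried more of these receptors. In Cd8 T cells the values of 6 receptors (all but Cd160) lay higher in both Runx1::Runx1t1 replicates than in both controls, but the 2 Runx1::Runx1t1 replicates were far apart, and 33.3% of all 13297 genes tested also lay higher in both. Havcr2 was at 6.56 and 27.5 CPM in Runx1::Runx1t1 replicates 1 and 2 against 0.49 and 0.59 in the controls, Tigit at 121 and 281 against 27.9 and 32.3, and Entpd1 at 13.7 and 36.4 against 3.56 and 7.60. The log2 differences between groups were 4.88 ± 0.75 for Havcr2, 4.12 ± 0.67 for Pdcd1, 4.10 ± 0.69 for Lag3, 2.66 ± 0.36 for Tigit, 2.07 ± 0.52 for Entpd1, 1.81 ± 0.35 for Ctla4 and 0.12 ± 0.20 for Cd160. None of the 7 passed the threshold in edgeR (adjusted p = 0.0677 to 0.771), in a comparison that called 0.113% of 13297 genes, 15 in all, with 2842 genes at an unadjusted p under 0.05. DESeq2 on the same sums called 5 of the 7. In edgeR, 5 were called without the largest clonotype, 4 with 1 cell per clonotype and 6 with no filter on low counts. With doublets kept, a stricter gate or DESeq2 size factors edgeR called 0. Without Runx1::Runx1t1 replicate 1 or replicate 2, edgeR called 6 and 5, and without control replicate 1 or 2 it called 0. The median log2 difference of the 7 receptors was 2.66, where that of all genes was -0.01.

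In Cd4 T cells 4 of the 7 receptors rose in the Runx1::Runx1t1 group, in a comparison that called 3.05% of 11269 genes. Havcr2 had 189 and 229 UMIs in the Runx1::Runx1t1 replicates against 3 and 5 in the controls, or 16.2 and 18.9 against 0.62 and 1.13 CPM, and its log2 difference was 4.36 ± 0.30 (adjusted p = 0.00127). Tigit rose by 1.37 ± 0.17 (adjusted p = 0.00983), Lag3 by 2.19 ± 0.39 (adjusted p = 0.0315) and Entpd1, at 36.4 and 46.0 against 21.5 and 21.1 CPM, by 0.996 ± 0.14 (adjusted p = 0.0157). The groups did not overlap for any of these 4, and 20.6% of all genes tested lay higher in both Runx1::Runx1t1 replicates in the same way. Pdcd1 differed by 0.90 ± 0.19 (adjusted p = 0.0550), Ctla4 by 0.27 ± 0.19 (adjusted p = 0.461) and Cd160 by -0.35 ± 0.11 (adjusted p = 0.124), and the median over the 7 was 0.996. The Lag3 call was lost in DESeq2 (adjusted p = 0.0984), and the Entpd1 call with 1 cell per clonotype (log2 difference 0.45, adjusted p = 0.242). The Cd4 class itself differed in makeup: of its cells with paired chains, 5.68% and 3.59% carried an invariant natural killer T receptor in the Runx1::Runx1t1 replicates against 10.8% and 14.2% in the controls, whose part in the differences was not tested.

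In Foxp3 T cells 1 receptor rose and 1 fell. Ctla4 rose by 0.66 ± 0.12 (adjusted p = 0.0155), with 1267 and 1183 CPM above 903 and 672, and Cd160 fell by 1.21 on the log2 scale (-1.21 ± 0.29, adjusted p = 0.0489), where 3.18% of 10085 genes were called. In these cells the natural killer markers together were at 25.4 and 14.4 CPM against 141 and 143, and their part in the Cd160 difference was not tested. Cd160 rested on at most 33 UMIs a replicate. Its call was lost in DESeq2 (adjusted p = 0.438) and without any of the 4 replicates (adjusted p = 0.0842 to 0.256). The Ctla4 call was lost without Runx1::Runx1t1 replicate 1 (adjusted p = 0.0772) or control replicate 2 (adjusted p = 0.0543). Pdcd1, at 56.6 and 47.8 CPM against 76.5 and 48.4, overlapped between the groups (-0.23 ± 0.18, adjusted p = 0.653). Tigit (0.49 ± 0.14, adjusted p = 0.107), Entpd1 (0.59 ± 0.16, adjusted p = 0.0832), Lag3 (0.95 ± 0.39, adjusted p = 0.286) and Havcr2 (1.09 ± 0.47, adjusted p = 0.310) did not pass, and the median over the 7 was 0.59.

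In co-receptor-negative T cells 4 receptors rose and 1 fell, where 3.18% of 12628 genes were called. Ctla4 rose by 2.04 ± 0.09 (adjusted p = 0.000843). It had a UMI in 24.9% and 29.7% of these cells against 9.36% and 8.60% without thinning, in no replicate above the share in Cd8 T cells with a naive profile (UMIs of Ccr7 and Lef1 and none of Ccl5, Nkg7, Cxcr3 and Gzmk), which itself was higher in the Runx1::Runx1t1 replicates. Tigit, at 95.3 and 90.5 CPM against 39.8 and 42.2, rose by 1.11 ± 0.08 (adjusted p = 0.00289), Lag3, at 18.8 and 29.6 against 5.12 and 4.42, by 2.25 ± 0.21 (adjusted p = 0.00599), and Pdcd1, at 16.1 and 23.4 against 5.97 and 6.76, by 1.55 ± 0.18 (adjusted p = 0.0108). Cd160 fell by 0.64 on the log2 scale (-0.64 ± 0.12, adjusted p = 0.0406). The groups did not overlap for any of the 5, and of all genes tested 35.7% lay higher and 17.8% lower in both Runx1::Runx1t1 replicates. The Cd160 call was lost without control replicate 1 or 2 (adjusted p = 0.0704 and 0.109), and the Pdcd1 call without control replicate 1 (adjusted p = 0.0522). Cells with a UMI of Klrb1c, the NK1.1 gene of natural killer lineages, were 32.1% and 19.2% of this class in the Runx1::Runx1t1 replicates and 48.9% and 48.9% in the controls. Cells with a Trdc UMI were 16.4% and 15.6% against 25.0% and 24.7%, and the part of this makeup in the Cd160 and other differences was not tested.

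**Figure D2:**
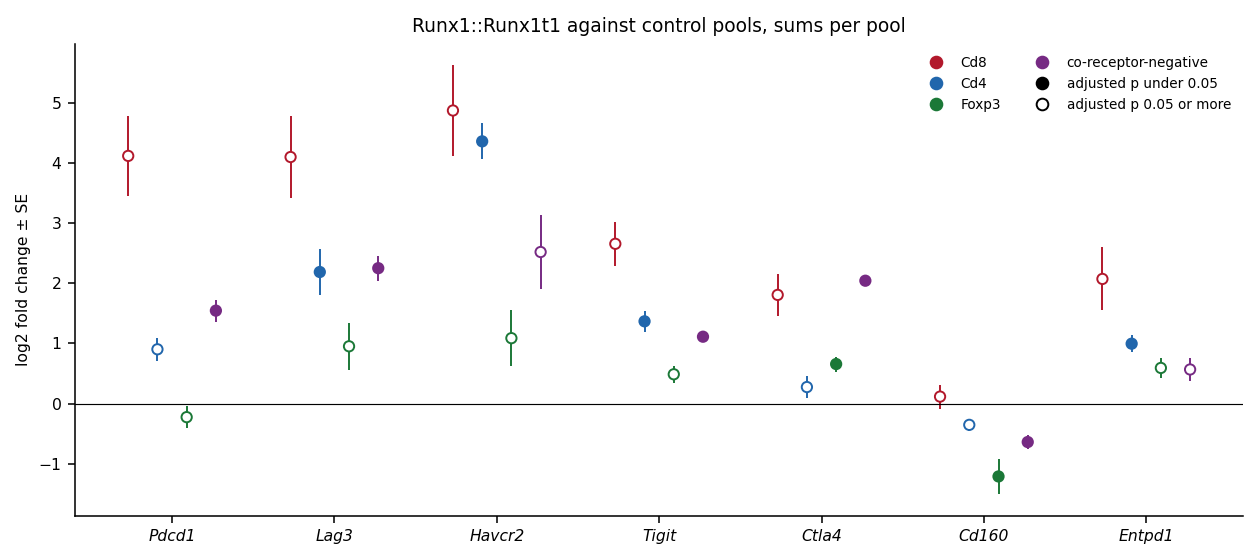
Log2 difference between the Runx1::Runx1t1 and control groups (y axis) of each receptor (x axis) in the 4 T cell classes (colours), with bars of 1 standard error from the edgeR fit; filled points have an adjusted p under 0.05. No Cd8 point is filled, the Cd8 points of Pdcd1, Lag3, Havcr2, Tigit and Entpd1 lie above those of the other classes, and Cd160 lies below 0 in Cd4, Foxp3 and co-receptor-negative T cells.

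The group differences themselves were compared between classes with an interaction term. Against the Cd8 T cells, the difference of Pdcd1 was smaller in Foxp3 T cells by 4.11 on the log2 scale (-4.11 ± 0.68, adjusted p = 0.0065) and that of Tigit by 2.07 (-2.07 ± 0.38, adjusted p = 0.0134), 2 of 7 receptors where 2.44% of 12936 genes were called. Between co-receptor-negative and Cd8 T cells only Cd160 passed (-0.76 ± 0.17, adjusted p = 0.0430), with 1.99% of genes called. The terms for Foxp3 and co-receptor-negative T cells were fitted in the main setting only. Whether their calls depend on the processing or on single replicates was not tested. Between Cd4 and Cd8 T cells no receptor passed by edgeR, with 0.224% of genes called, 29 in all, and 1255 at an unadjusted p under 0.05, and DESeq2 called 72 genes. DESeq2 called 2 of the 7 receptors, Ctla4 and Pdcd1, and edgeR called 5 without Runx1::Runx1t1 replicate 1, 2 without replicate 2, 0 without either control, 2 without the largest clonotype and 6 with no filter on low counts. The closest were Ctla4 (-1.47) and Pdcd1 (-3.00 ± 0.59), both at an adjusted p of 0.0698.

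The level of a receptor in a class mixes how many cells carried it and how much each carried, so cells were thinned to 2000 UMIs each and counted. In Cd8 T cells a Pdcd1 UMI was found in 4.62% and 17.2% of thinned cells of Runx1::Runx1t1 replicates 1 and 2 against 0.76% and 0.72% in control replicates 1 and 2 (8.81%, 30.4%, 1.83% and 1.68% without thinning). Lag3 was found in 7.39% and 26.4% against 1.58% and 1.26%, Tigit in 17.3% and 34.3% against 4.79% and 5.72%, and Cd160 in 11.01% and 16.5% against 8.46% and 13.4%. The shares differed between groups far more than the UMIs per positive cell, which were 1.42 and 1.49 against 1.27 and 1.15 for Pdcd1, 1.67 and 1.85 against 1.27 and 1.25 for Lag3 and 1.81 and 2.10 against 1.23 and 1.23 for Tigit. A UMI count near 1 per positive cell is close to the lowest value it can take.

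Free RNA and low-level transcription were gauged in 559 Cd8 T cells with UMIs of Ccr7 and Lef1 and none of Ccl5, Nkg7, Cxcr3 and Gzmk, a naive profile, at a median of 5628 UMIs. Pdcd1 had a UMI in 2 of them (0.358%), Lag3 and Entpd1 each in 1 (0.179%), Tigit in 11 (1.97%), Cd160 in 15 (2.68%) and Havcr2 in 0, which allows a share of up to 0.537%. Only 91 and 40 of these cells came from Runx1::Runx1t1 replicates 1 and 2, against 261 and 167 from control replicates 1 and 2. In Runx1::Runx1t1 replicate 2 alone, Pdcd1 in 0 of 40 cells allows up to 7.5%. Lag3 stood there at 2.5% (95% Wilson interval 0.44 to 12.9), so the background of this replicate is poorly known. Ctla4 was different, with a UMI in 111 (19.9%): 36.3% (95% Wilson interval 27.1 to 46.5) and 30% (18.1 to 45.4) in Runx1::Runx1t1 replicates 1 and 2 and 15.7% (11.8 to 20.6) and 14.97% (10.4 to 21.2) in control replicates 1 and 2. The unthinned Ctla4 shares of all Cd8 T cells were 27.2%, 46.2%, 15.9% and 12.2%. Only Runx1::Runx1t1 replicate 2 stood above the interval of its own naive-profile cells. The Ctla4 share over all Cd8 T cells of the other 3 replicates lay within that interval. Free RNA and transcription in the naive-profile cells were not told apart. Larger clonotypes (cells with the same T cell receptor, defined below) differed. Without thinning, Ctla4 was in 50.6% of cells in clonotypes of 20 or more in Runx1::Runx1t1 replicate 1. At 5 to 19 cells it was in 27.0% in control replicate 1, above its interval, and 20.1% in control replicate 2, within its interval. In 2472 cells without any T cell marker or chain, at a median of 1427 UMIs, Lag3 was found in 11.7%, Ctla4 in 9.39% and Entpd1 in 7.12%. By replicate, Lag3 was in 13.6% and 18.2% of them in Runx1::Runx1t1 replicates 1 and 2 and in 3.35% and 11.3% in control replicates 1 and 2.

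The number of different receptors detected in the same cell was counted after thinning. In Cd8 T cells, at least 2 of the 7 receptors were found in 13.0% (95% Wilson interval 12.2 to 13.9, which covers counting error only) of cells of Runx1::Runx1t1 replicate 1 and 35.8% (34.7 to 37.0) of replicate 2, and in 2.87% (2.47 to 3.33) and 3.75% (3.32 to 4.23) of control replicates 1 and 2. The mean of the groups was 24.4% ± 16.1 (SD, n = 2) against 3.31% ± 0.62 (SD, n = 2), a difference of 21.1 percentage points (2-sided exact permutation test over replicates, p = 0.33, the smallest p that 2 against 2 can give). The difference was 9.73 points without Runx1::Runx1t1 replicate 2 and 32.5 without replicate 1. With 1 cell per clonotype it was 7.78 points, but cells without paired chains stayed in uncollapsed. Within single-cell clonotypes the shares were 4.31% and 5.90% in Runx1::Runx1t1 replicates 1 and 2 against 2.00% and 2.30% in the controls. At least 4 receptors were found in 2.75% and 13.2% of Cd8 T cells against 0.19% and 0.18%, and all 7 in 6 cells, all from Runx1::Runx1t1 replicate 2. For at least 2 and for at least 4 receptors, both Runx1::Runx1t1 replicates stood above both controls. Leaving out Ctla4 and Cd160, the receptors found most often in the naive-profile cells, shares with at least 2 were 7.79% and 28.9% against 0.79% and 0.99%. Without thinning they were 30.7% and 51.5% against 12.3% and 15.1% over all 7 receptors.

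Cd4 and Foxp3 T cells often carried at least 2 receptors in both groups. The shares were 32.8% and 33.9% against 22.4% and 13.5% in Cd4 T cells, and 53.9% and 47.2% against 44.1% and 33.1% in Foxp3 T cells. In co-receptor-negative T cells they were 12.0% and 12.1% against 4.41% and 5.37%. The differences of the means were 15.4, 11.9 and 7.12 percentage points, the Runx1::Runx1t1 replicates stood above the controls in each class, and each exact permutation test gave p = 0.33. In Foxp3 T cells, without Ctla4 and Cd160 the shares were 16.9% and 13.8% against 15.96% and 8.39%, which overlapped, with a difference of 3.17 points (exact permutation test, p = 0.67), and at 1000 UMIs per cell the groups overlapped as well.

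**Figure D3:**
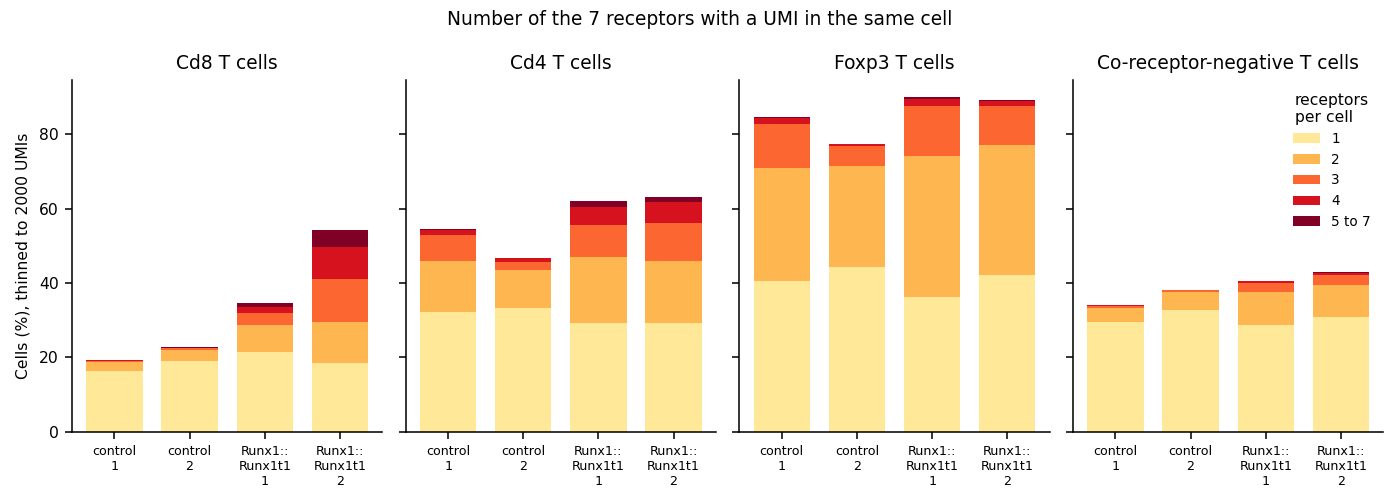
Share of cells (y axis, %) in which 1, 2, 3, 4 or 5 to 7 of the receptors had a UMI after thinning to 2000 UMIs per cell, stacked for each replicate (x axis) in the 4 T cell classes (panels). Runx1::Runx1t1 replicate 2 has the tallest stack among Cd8 T cells, with 54.3% of cells holding at least 1 receptor, against 34.6% in replicate 1 and 19.3% and 22.7% in the controls.

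Within single Cd8 T cells the receptors occurred together. Of the thinned cells with a Pdcd1 UMI, 53.6% (48.0 to 59.1) in Runx1::Runx1t1 replicate 1 and 68.9% (66.2 to 71.5) in replicate 2 also had a Lag3 UMI, against 5.15% and 17.6% of the cells without Pdcd1. In the controls these were 34.1% (21.9 to 48.9, 15 of 44 cells) against 1.33% and 20.8% (11.7 to 34.3, 10 of 48 cells) against 1.12%. Tigit was found in 77.3%, 79.4%, 43.2% and 45.8% of Pdcd1-positive cells of Runx1::Runx1t1 replicates 1 and 2 and control replicates 1 and 2, against 14.4%, 25.0%, 4.50% and 5.43% of the rest. The same pairing of receptors was therefore present in the few positive cells of the controls. Of the 21 receptor pairs, 21 were found together more often, with intervals apart, in Runx1::Runx1t1 replicate 2, 17 in replicate 1, 13 in control replicate 1 and 15 in control replicate 2, and none less often with intervals apart. These intervals count every cell as independent, although cells of 1 clonotype can share a profile. In Runx1::Runx1t1 replicate 2 the largest clonotype held 41.3% of the Pdcd1-positive and 37.4% of the Lag3-positive Cd8 T cells. Pairs were not counted with 1 cell per clonotype, so the numbers of pairs are a description.

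Cd160 was paired with the others less regularly. It was found in 14.1% of Pdcd1-positive cells against 10.9% of the rest in Runx1::Runx1t1 replicate 1, in 31.1% against 13.4% in replicate 2, and in 15.9% against 8.40% and 25.0% against 13.3% in the controls. Beside Ctla4 it was found in 9.11% against 11.3% in Runx1::Runx1t1 replicate 1, 22.0% against 14.5% in replicate 2, and 7.47% against 8.53% and 13.2% against 13.4% in the controls. Replicate 2 of the Runx1::Runx1t1 group was thus the only replicate where Cd160 was more frequent in Ctla4-positive cells. Its largest clonotype held 29.4% of its Cd160-positive and 24.9% of its Ctla4-positive Cd8 T cells, and the part of this clonotype in the pairing was not tested.

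Clone size was read from the T cell receptor sequences. A clonotype was the set of cells of 1 replicate with identical TRA and TRB CDR3 nucleotides, the CDR3 being the loop that contacts antigen, and 35931 cells with both chains formed 28825 clonotypes. In Cd8 T cells, Lag3 was found in 1.92% of thinned cells of single-cell clonotypes in Runx1::Runx1t1 replicate 1, 10.7% of clonotypes of 2 to 4 cells, 22.5% of 5 to 19 cells and 37.5% of 20 or more. In replicate 2 these were 3.62%, 26.3%, 45.0% and 63.9%. In control replicate 1 they were 1.07%, 6.97% and 11.03%, with no clonotype of 20 or more. In control replicate 2 they were 0.54%, 4.60%, 7.14% and 0 of 91 thinned cells from 5 clonotypes. That 0 allows up to 3.30% at the thinned depth, if cells of a clonotype counted as independent. Without thinning, 4.35% of the 92 cells had a Lag3 UMI. The Lag3 share was thus higher at each step up to 19 cells in every replicate, with the controls at a lower level, and the largest clonotypes of control replicate 2 left the pattern.

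Pdcd1 went from 1.06% in single-cell clonotypes to 25.2% in those of 20 or more in Runx1::Runx1t1 replicate 1 and from 1.56% to 44.1% in replicate 2, and from 0.30% to 9.56% and 0.32% to 3.57% at 5 to 19 cells in control replicates 1 and 2. Tigit went from 8.27% to 60.1% and 8.46% to 74.9% over the same steps, and from 3.96% to 19.9% and 3.86% to 21.8% in the controls. Cd160 stood at 8.66%, 20.1%, 20.4% and 15.4% over the 4 sizes in Runx1::Runx1t1 replicate 1 and at 8.76%, 13.4%, 14.9% and 32.3% in replicate 2, so it too was higher at each step up to 19 cells, and in single cells it stood above Pdcd1 and Lag3. In control replicate 2 it stood at 12.3%, 24.1%, 26.8% and 30.8% and was the receptor found most often in the clonotypes of 20 or more. At least 2 receptors were found in 4.31% of single cells and 55.5% of the largest clonotypes of Runx1::Runx1t1 replicate 1, and in 5.90% and 84.6% of replicate 2, while the controls reached 16.9% and 16.4% at 5 to 19 cells from 2.00% and 2.30%. In Runx1::Runx1t1 replicate 2, 1086 of the 1941 Cd8 T cells in clonotypes of 20 or more were of 1 clonotype. The shares of that replicate at this size, that of Cd160 among them, thus rest largely on it.

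**Figure D4:**
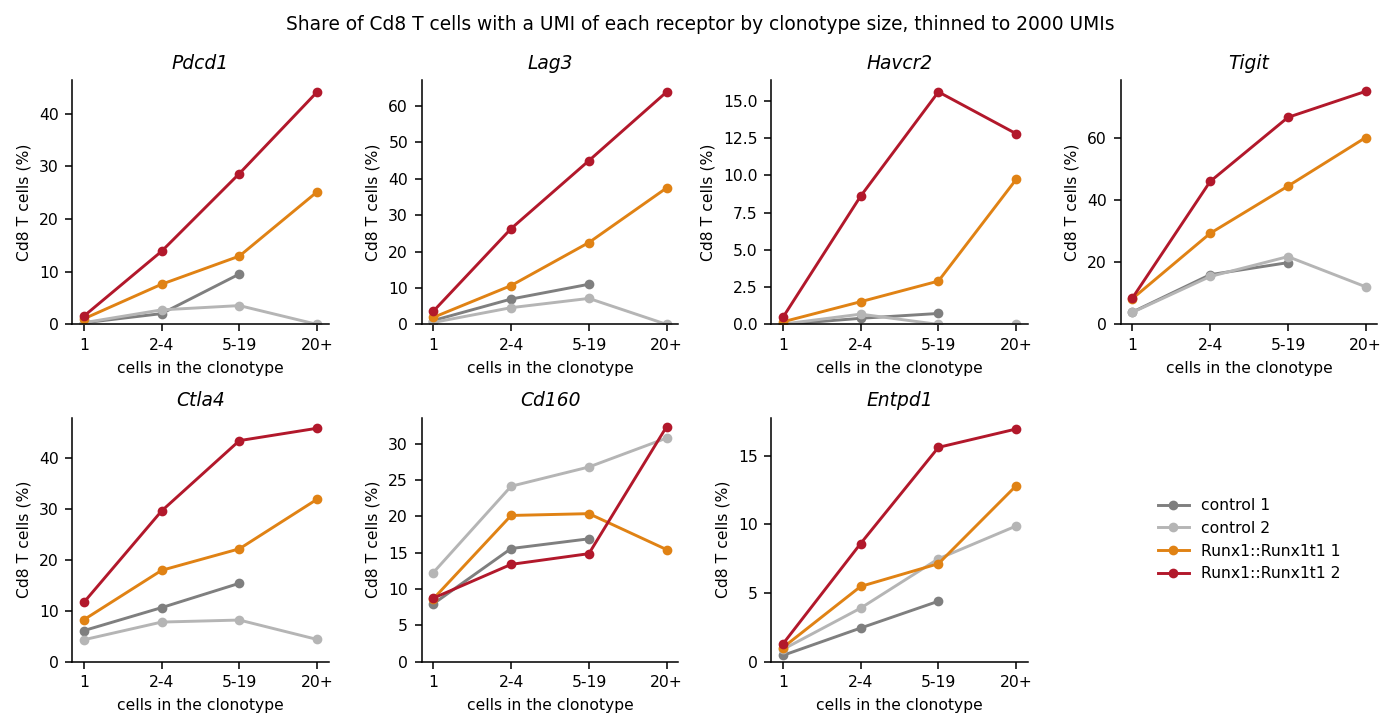
Share of Cd8 T cells with a UMI of each receptor after thinning to 2000 UMIs (y axis, %) against the size of the clonotype in its replicate (x axis: 1, 2 to 4, 5 to 19, 20 or more cells), with 1 line for each replicate. Control replicate 1 has no Cd8 T cells in clonotypes of 20 or more; Pdcd1, Lag3 and Tigit climb with size in the Runx1::Runx1t1 replicates, and Cd160 starts from a higher share in single cells than Pdcd1 and Lag3.

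Summed over each replicate and compared within replicates by edgeR, all 7 receptors were higher in Cd8 T cells of clonotypes of at least 5 cells than in single-cell clonotypes, where 24.0% of 12663 genes were called. The log2 differences were 5.00 ± 0.38 for Havcr2 (adjusted p = 0.000642), 4.60 ± 0.32 for Pdcd1 (adjusted p = 0.000477) and 4.01 ± 0.29 for Lag3 (adjusted p = 0.000579). They were 3.03 ± 0.26 for Entpd1 (adjusted p = 0.000951), 2.97 ± 0.30 for Tigit (adjusted p = 0.00152), 1.69 ± 0.24 for Ctla4 (adjusted p = 0.00401) and 0.89 ± 0.15 for Cd160 (adjusted p = 0.00668), with a median of 3.03. With 1 cell per clonotype, Cd160 was at 0.30 (adjusted p = 0.326) and no longer passed. That fit lacked control replicate 1, whose expanded clonotypes then held only 18 cells. Fitted in the control replicates alone, the differences were 3.97 for Pdcd1, 3.21 for Lag3 and 2.24 for Tigit, and in the Runx1::Runx1t1 replicates alone 4.93, 4.52 and 3.59. The difference between the groups in this clone-size effect did not pass for any receptor (adjusted p = 0.0919 to 0.673), in an edgeR comparison that called 2 genes, with 1803 at an unadjusted p under 0.05, and DESeq2 called 134, among them Lag3, Tigit and Ctla4.

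Clonal cells made up different shares of the replicates, clonotypes of at least 5 cells holding 14.997% and 31.1% of the Cd8 class in the Runx1::Runx1t1 replicates and 2.31% and 5.58% in the controls. Among Pdcd1-positive Cd8 T cells these shares were 58.4%, 73.7%, 20.2% and 22.1%, and among Cd160-positive ones 19.2%, 46.4%, 3.86% and 8.42%. The groups were therefore also compared within single-cell clonotypes and within clonotypes of at least 5 cells, the latter still unequal in size, with 1941 Cd8 T cells of Runx1::Runx1t1 replicate 2 in clonotypes of 20 or more against 624 in replicate 1 and 0 and 92 in the controls. Among single-cell clonotypes, 5 receptors rose in the Runx1::Runx1t1 group, where 5.01% of 12508 genes were called: Havcr2 by 3.09 ± 0.63 (adjusted p = 0.0397), Pdcd1 by 1.84 ± 0.21 (adjusted p = 0.0110), Lag3 by 1.83 ± 0.34 (adjusted p = 0.0338), Tigit by 0.98 ± 0.08 (adjusted p = 0.0029) and Ctla4 by 0.92 ± 0.18 (adjusted p = 0.0351), the last not in DESeq2 (adjusted p = 0.0651). The unthinned Ctla4 shares of these single cells (22.0% and 26.7% against 15.1% and 11.4%) were at or below those of the naive-profile cells of the same replicates. Entpd1 (0.63, adjusted p = 0.176) and Cd160 (-0.28, adjusted p = 0.302) did not pass. Among clonotypes of at least 5 cells no gene passed by edgeR, with 1682 at an unadjusted p under 0.05 and 227 called by DESeq2, among them 5 of the 7 receptors (Tigit, Havcr2, Ctla4, Lag3 and Entpd1). There the differences were 3.99 for Havcr2, 3.23 for Lag3, 2.82 for Pdcd1, 2.32 ± 0.20 for Tigit (adjusted p = 0.0708) and 0.14 for Cd160.

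In Cd4 T cells 4 of the 7 receptors passed along clone size. In clonotypes of at least 5 cells against single cells, Lag3 rose by 3.38 ± 0.26 (adjusted p = 0.000484), Havcr2 by 3.15 ± 0.50 (adjusted p = 0.00773), Pdcd1 by 2.52 ± 0.26 (adjusted p = 0.00111) and Tigit by 2.41 ± 0.18 (adjusted p = 0.000435), where 8.28% of 10413 genes were called and the median of the 7 was 2.41. The Havcr2 call was lost without Runx1::Runx1t1 replicate 1 (2.20, adjusted p = 0.0938). Entpd1 was at 1.37 ± 0.35 (adjusted p = 0.0506), Ctla4 at 0.52 (adjusted p = 0.106) and Cd160 at 0.32 (adjusted p = 0.502). Cells with at least 2 receptors went from 13.4% of single cells to 73.7% of clonotypes of 20 or more in Runx1::Runx1t1 replicate 1 and from 15.9% to 56.7% in replicate 2, and from 13.3% to 54.2% and 8.69% to 33.3% at 5 to 19 cells in control replicates 1 and 2. At 20 or more cells the controls held 1 clonotype each, with 89.3% of 28 thinned cells in control replicate 1 and 6.67% of 15 in control replicate 2.

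Single clonotypes fell into unlike receptor profiles. There were 30 clonotypes with at least 20 Cd8 T cells, 12 in Runx1::Runx1t1 replicate 1, 14 in replicate 2, none in control replicate 1 and 4 in control replicate 2. In 16 of them at least 50% of cells had a Pdcd1 UMI, a value chosen after the shares were seen, and these were 5 and 11 clonotypes of the Runx1::Runx1t1 replicates. In these 16, without thinning, Lag3 was found in 80.0% to 100% of cells, Tigit in 90.0% to 100%, Ctla4 in 65.1% to 100%, Entpd1 in 35.0% to 75.0%, Havcr2 in 15% to 77.3% and Cd160 in 5.00% to 70.2%, and a cell held 3.78 to 5.44 receptors on average. In the other 14, a median of 0.68% of cells had Pdcd1, 9.09% Lag3, 45.7% Tigit, 42.8% Cd160, 14.2% Entpd1, 13.1% Ctla4 and 0% Havcr2. Lag3 was in 0% to 60.0% of cells of these 14 clonotypes, Tigit in 12.5% to 90.0% and Cd160 in 0% to 68.2%, so the Cd160 shares of both kinds overlapped. The split rests on Pdcd1 itself and is given as a description.

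The largest clonotype held 1086 Cd8 T cells, 15.3% of those in Runx1::Runx1t1 replicate 2, and with them 41.3% of its Pdcd1-positive, 37.4% of its Lag3-positive and 29.4% of its Cd160-positive Cd8 T cells. Pdcd1 was found in 82.1% of its cells, Lag3 in 95.03%, Tigit in 98.3%, Ctla4 in 75.1%, Cd160 in 70.2%, Entpd1 in 46.5% and Havcr2 in 27.0%. The next clonotype of the same replicate, of 164 Cd8 T cells, had Pdcd1 in 9.15%, Lag3 in 27.4%, Havcr2 in 0.61%, Tigit in 48.2% and Cd160 in 42.7%. Clonotypes of one replicate thus differed widely in profile. In Runx1::Runx1t1 replicate 1 the same contrast was seen between a clonotype of 111 cells (Pdcd1 80.2%, Lag3 94.6%, Havcr2 44.1%) and one of 74 cells (Pdcd1 1.35%, Lag3 8.11%, Havcr2 in 0 cells, which allows up to 4.05%, and Cd160 52.7%). Without the largest clonotype, 25.5% of Cd8 T cells of replicate 2 held at least 2 receptors, against 35.8% with it.

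The CDR3 nucleotides of the 2 largest clonotypes of Runx1::Runx1t1 replicate 2 are shown because their receptor profiles differed, and those of a further pair because their TRB chains were nearly the same. In the last 2 lines capitals mark the bases that differ between that pair.
Clonotype of 1086 cells, TRA (TRAV6-6): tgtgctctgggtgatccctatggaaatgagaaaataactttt
Clonotype of 1086 cells, TRB (TRBV1): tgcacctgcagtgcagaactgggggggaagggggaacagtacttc
Clonotype of 164 cells, TRA (TRAV8D-2): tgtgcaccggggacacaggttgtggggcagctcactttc
Clonotype of 164 cells, TRB (TRBV26): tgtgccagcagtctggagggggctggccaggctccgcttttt
Clonotype of 44 cells, TRB (TRBV1): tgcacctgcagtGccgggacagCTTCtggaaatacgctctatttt
Clonotype of 42 cells, TRB (TRBV1): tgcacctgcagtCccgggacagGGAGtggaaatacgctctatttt
The clonotypes of 44 and 42 cells shared TRAV6N-6 and TRBV1, with 40 of 45 TRB bases and 24 of 36 TRA bases identical. The largest clonotype also used TRBV1, but its TRB CDR3 matched those 2 at only 21 and 23 of 45 bases. The clonotype of 44 cells had the highest Havcr2 share of all 30, at 77.3%, with Cd160 in 22.7%.

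**Figure D5:**
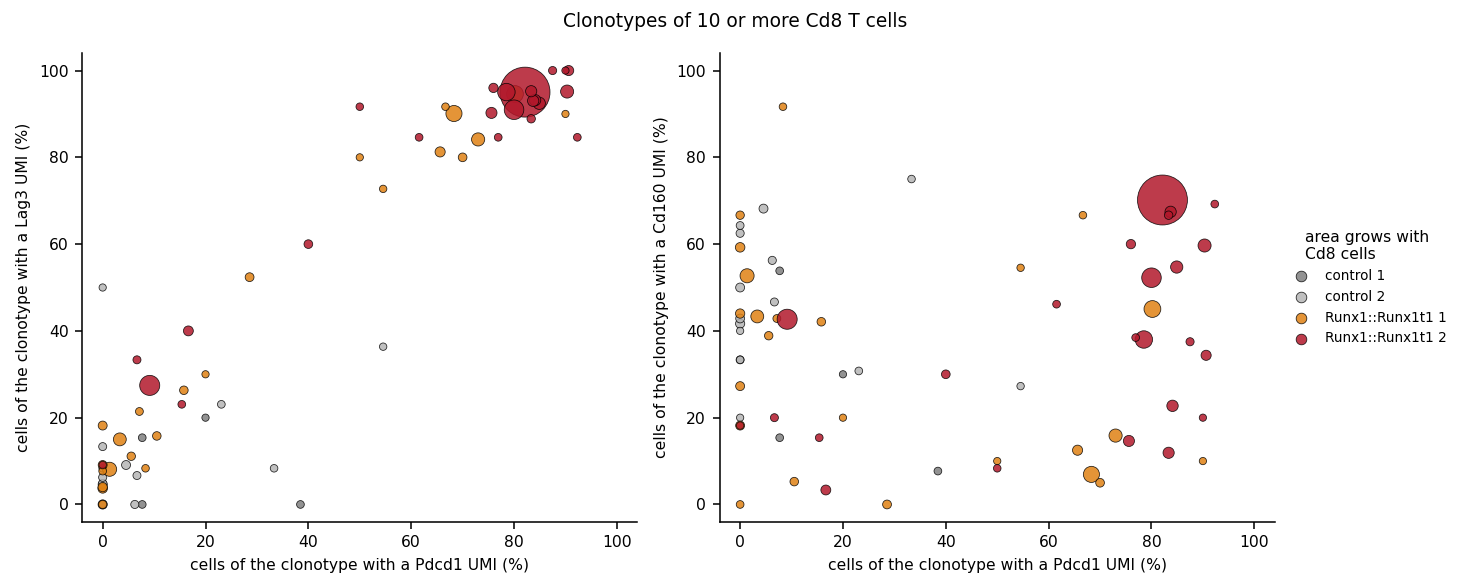
Clonotypes with at least 10 Cd8 T cells (24 in each Runx1::Runx1t1 replicate, 4 and 15 in control replicates 1 and 2), plotted by the share of their cells with a Pdcd1 UMI (x axis, %) against the share with a Lag3 UMI (left, y axis, %) and a Cd160 UMI (right, y axis, %), without thinning; point area grows with the number of cells and colour gives the replicate. The points rise together for Lag3 and spread over the Cd160 axis at both ends of the Pdcd1 axis.

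Genes outside the 7 were followed along the number of receptors in Cd8 T cells. Tox, a transcription factor of exhausted T cells, was found in 7.60% of thinned cells without a receptor and 66.1% of those with at least 5 in Runx1::Runx1t1 replicate 1, and in 8.66% and 64.1% in replicate 2. Already at 2 receptors it was found in 27.0%, 47.7%, 14.5% and 14.6% of cells of Runx1::Runx1t1 replicates 1 and 2 and control replicates 1 and 2. Tcf7, which encodes TCF-1 of naive and memory T cells, went the other way, from 48.4% to 0 of 59 cells, which allows up to 5.08%, and from 48.1% to 2.86% in the Runx1::Runx1t1 replicates. In control replicates 1 and 2 it was in 55.6% and 48.8% of cells without a receptor and 50.7% and 44.2% at 2 receptors. At 3 receptors it was in 38.9% of 18 and 21.1% of 38 control cells. The granzyme genes Gzmk and Gzmb went from 7.46% to 73.0% and from 6.41% to 59.7% in replicate 2. The median clonotype size of paired cells with at least 5 receptors in that replicate was 1106 cells, the size of its largest clonotype. The part of this clonotype in the values of replicate 2 was not tested.

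Cd8 T cells with at least 2 receptors were compared with those with none by edgeR on thinned sums, leaving out the receptors themselves, and 24.0% of 10927 genes were called. Of 15 genes of the exhaustion transcription factor list, 13 were higher and 1 lower, led by Tox2 (log2 difference 6.72), Maf (3.40), Prdm1 (2.74), Tox (2.09) and Nr4a2 (2.06). Of 11 stem and naive genes, 10 were lower, among them the chemokine receptor gene Ccr7 (-3.97), Satb1 (-2.92) and Lef1 (-2.54). Of 14 effector genes, 11 were higher and 1 lower, with the chemokine Ccl3 at 3.01, Gzmk at 2.99 and the chemokine receptor Cxcr6 at 2.76. Of 12 other inhibitory receptors 3 were higher (Cd200r1 4.28, Lilrb4a 2.02 and Cd101 1.69) and Btla was lower (-1.60), and of 10 costimulatory genes 7 were higher (Cd244a 3.77, Tnfrsf9 3.57, Tnfrsf4 2.60) and 1 lower (Slamf6 -0.98). Signalling genes stood at 8 higher and 2 lower of 14 (Sh2d2a 1.52, Ptpn6 -1.21), receptor ligands at 2 higher of 9 (Lgals3 1.56, Pdcd1lg2 1.30) and adenosine genes at 1 higher and 4 lower of 7 (Adora2a 0.95, Adk -1.78).

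The same lists were read along clone size in Cd8 T cells, where 24.0% of all genes passed in either direction. Of 15 exhaustion transcription factor genes, 12 (Tox2 5.13, Maf 3.12, Prdm1 3.06) and 12 of 14 effector genes (Gzma 4.49, Gzmk 3.91, Cx3cr1 3.73) were higher in clonotypes of at least 5 cells and none lower. Of 11 stem and naive genes 10 were lower (among them Ccr7 -5.43 and Satb1 -3.77). The effector list's median log2 difference was 2.52 and that of the exhaustion factors 1.31, against -2.18 for the stem and naive genes. Of 13 other inhibitory receptors 4 were higher (Klrg1 3.59, Cd200r1 3.57, Lilrb4a 1.66, Cd101 1.27) and Klra7 was lower (-2.41), and of 9 ligand genes 3 were higher (Cd80 2.53, Lgals3 2.37, Cd86 0.94). In 7 adenosine genes 4 were lower, Nt5e, which encodes CD73, the enzyme that acts after CD39, by the most (-2.03), and Adora2a was higher (0.62). Of 14 signalling genes 8 were higher and 1 lower, and of 10 costimulatory genes 1 was higher (Cd244a 3.38) and 1 lower (Slamf6 -1.04). Along clone size in Cd4 T cells, where 8.28% of all genes passed, 8 of 15 exhaustion factors and 5 of 13 effector genes were higher and none lower, and of 11 stem and naive genes 8 were lower and 1 higher.

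Between the groups, members of the lists were counted in each class, to be read against the 0.113%, 3.05%, 3.18% and 3.18% of all genes called in Cd8, Cd4, Foxp3 and co-receptor-negative T cells. In Cd8 T cells 3 members passed, Tnfrsf4 (1.86) of 10 costimulatory genes, Eomes (1.15) of 15 exhaustion factors and Id3 (-0.78) of 11 stem and naive genes. In Cd4 T cells 6 of 15 exhaustion factors rose (Eomes 2.83, Prdm1 1.63, Bhlhe40 1.01) and 8 of 14 effector genes (Ccl4 3.52, Ccl3 3.48, Gzmk 3.32), while 5 of 11 stem and naive genes fell (among them Id3 -0.59 and Tcf7 -0.58). Of 12 other inhibitory receptors in Cd4 T cells Lilrb4a rose (1.54) and the natural killer receptor genes Klra7 (-1.90) and Klrc1 (-1.80) fell. Of 10 costimulatory genes Tnfrsf4 (1.05) and Cd2 (0.63) rose and Slamf6 fell (-0.54), of 14 signalling genes Sh2d2a (0.96), Sh2d1a (0.81) and Fyn (0.52) rose and Ptpn6 fell (-0.52), of 7 adenosine genes Adk fell (-0.88), and of 9 ligand genes none passed.

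In co-receptor-negative T cells 7 of 15 exhaustion factors rose (Tox2 1.84, Prdm1 1.17, Maf 1.13), as did Gzmk (3.49) of 14 effector genes and Tnfrsf4 (2.23) and Icos (1.37) of 10 costimulatory genes. Of 14 other inhibitory receptors Cd5 rose (0.70) and Klra7 (-1.14) and Klrc1 (-1.07) fell, and of 11 stem and naive genes 1 rose (Ccr7 1.44) and 2 fell (among them Id3 -0.69). Cd274 (0.46), which encodes PD-L1, and the signalling gene Sh2d2a (0.45) also rose, and no adenosine gene passed. In Foxp3 T cells 2 of 15 exhaustion factors (Prdm1 1.09, Bhlhe40 1.02), Cd274 (0.89) and Gzmk (3.18) rose. Of 9 costimulatory genes 4 rose (Tnfrsf4 1.21, Tnfrsf9 0.96, Cd2 0.68, Tnfrsf18 0.50) and Slamf6 fell (-0.54). Of 12 other inhibitory receptors Lilrb4a (1.32) and Klrg1 (0.80) rose and Cd300a (-3.70) and Klrc1 (-1.87) fell, Ccr7 rose (0.60) and Tcf7 fell (-0.62), and no signalling or adenosine gene passed.

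Over the 16 sums of 4 classes in 4 replicates, which share their libraries, the gene most like each receptor among 10680 genes was taken by Pearson's r of log2 CPM, as a description. For Pdcd1 it was Tox (0.957), followed by Tox2 (0.954) and Csf1 (0.949). For Tigit it was Il10 (0.975) with Csf1 (0.970) and Prdm1 (0.970), for Ctla4 Slamf1 (0.984), Sdcbp2 (0.979) and Klc3 (0.977), and for Cd160 Txk (0.984), Ctsw (0.984) and Tm6sf1 (0.973). Lag3 was closest to Cd3e (0.932), Tmem115 (0.906) and Strap (0.902), Havcr2 to Nt5c3b (0.939), Atp5c1 (0.924) and Perp (0.903), and Entpd1 to Cela1 (0.966), Psmb6 (0.954) and Psmb2 (0.950). Among the receptors themselves, Pdcd1 and Tigit were the closest pair (0.943), Tigit and Ctla4 stood at 0.931, and Cd160 ran against Ctla4 (-0.897) and Tigit (-0.768).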

How the data were processed

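T cells were profiled with 10x Genomics 5′ gene expression and T cell receptor libraries. The deposited UMI counts and contig tables were made by the authors with Cell Ranger 6.1.2 against GRCm38. The annotation release is not given in the sources used here. Of 56649 barcodes, 55850 passed a minimum of 200 genes and a mitochondrial share of no more than 15% of UMIs. Scrublet removed doublets by its own threshold in Runx1::Runx1t1 replicate 2 (573), and in the other libraries, where it marked under 0.5%, the 5% with the highest scores were removed (759, 717 and 768), leaving 53033 cells. T cells with UMIs of Cd8a or Cd8b1 together with UMIs of Cd4 or Foxp3 were left out of the classes.

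UMI counts were summed per replicate and class (at least 20 cells) and tested with edgeR 4.0.16 (quasi-likelihood F test, TMM, filterByExpr, Benjamini-Hochberg over all genes tested at 0.05, R 4.3.3). Standard errors were derived from the F statistics. Replicates entered as a block when classes, clone sizes or receptor numbers were compared. DESeq2 1.42.0 was an alternative, as were no count filter, another thinning depth, doublets kept, a stricter gate, 1 cell per clonotype and leaving out each replicate or the largest clonotype. With 1 cell per clonotype, cells without paired chains stayed in the classes, so clonal cells among them were not collapsed. Paired chains were found in 76.8% to 81.6% of Cd8 and 44.9% to 54.2% of co-receptor-negative T cells per replicate. The comparisons restricted to single-cell clonotypes or to clonotypes of at least 5 cells, and those within groups, were chosen after seeing the data, as was the naive-profile reference. 1 gene of the lists is not reported here. The pipeline was tested on simulated data. Thinning drew 2000 UMIs per cell and left out shallower cells (84 to 188 Cd8, 31 to 52 Cd4, 24 to 62 Foxp3 and 288 to 415 co-receptor-negative T cells per replicate). Python 3.11.15 with scanpy 1.11.5, scipy 1.17.1 and pandas 2.3.3 was used. The receptors and gene lists were chosen with earlier results of these data known. All 7 receptors are counted in each comparison, and list genes named in the text are among the 5 largest differences of their list that passed. Genes like a receptor had at least 500 UMIs.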

Additional observations from a re-analysis of the deposited data

Results flagged for a closer look

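Pdcd1 and Tigit were marked because their group difference was not the same in 2 classes by an interaction test in edgeR. The Pdcd1 difference in Foxp3 T cells was smaller than in Cd8 T cells (-4.11 on the log2 scale, adjusted p = 0.0065), and so was that of Tigit (-2.07, adjusted p = 0.0134). Cd160 was marked for the same reason between co-receptor-negative and Cd8 T cells (-0.76, adjusted p = 0.0430). None of these calls was refitted under the alternatives.

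T cells with UMIs of Cd8a or Cd8b1 together with UMIs of Cd4 or Foxp3 belong to no class of the comparisons. Of these, 33.7% and 38.6% held at least 2 receptors after thinning in Runx1::Runx1t1 replicates 1 and 2, a mean of 36.1%, against 17.8% and 15.4% in control replicates 1 and 2, a mean of 16.6%. They were 5.21% and 6.74% of kept cells in the Runx1::Runx1t1 replicates and 2.14% and 2.04% in the controls. The part of undetected doublets and of cells with Foxp3 in them was not tested. With 2 replicates per group no single replicate could be tested as an outlier.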

How the results depend on the processing

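Over all alternatives, counts of called genes and shares of cells stayed within the replicate spread or 1.5 times in 127 cases and moved in 54. For the shares, leaving out 1 replicate or adding the replicate block could not move the difference beyond that spread. Those cases are among the 127 by construction and say nothing about stability. For single receptors the call and direction held in 677 cases, 99 gained and 30 lost the call, and 20 changed sign. The causes were not tested. DESeq2 called 871 genes between groups in Cd8 T cells, 182 in Foxp3 T cells, 620 in co-receptor-negative T cells and 72 for the difference of the group effect between Cd4 and Cd8 T cells. Without a count filter these were 851 in Cd8, 789 in Cd4, 767 in Foxp3 T cells and 507 for the difference. With doublets kept, 1 gene was called in Cd8 T cells. With 1 cell per clonotype, 385 were called in Cd8 T cells, 137 in Cd4 T cells, 13 for the difference, 1428 between clone sizes in Cd8 and 414 in Cd4 T cells. In these clone-size fits, expanded sums under 20 cells removed control replicate 1 in Cd8 T cells (18 cells). In Cd4 T cells they removed control replicates 1 and 2 (15 and 11 cells). The part of these losses in the counts was not tested. Without the largest clonotype 504 were called in Cd8 T cells and 63 for the difference. Single-cell clonotypes alone gave 627 and those of at least 5 cells 0, and the control replicates alone gave 1786 genes between clone sizes.

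Leaving out 1 replicate gave 3 to 1666 genes between groups in Cd8 T cells, 366 to 618 in Cd4, 145 to 430 in Foxp3 and 116 to 928 in co-receptor-negative T cells. It gave 3125 to 4447 between Cd4 and Cd8, 1713 to 2612 between Foxp3 and Cd4, 2136 to 3545 between co-receptor-negative and Cd8 T cells, and 1 to 330 for the difference of group effects. Between clone sizes it gave 872 to 2899 in Cd8 and 254 to 1178 in Cd4 T cells, and between receptor numbers 1159 to 2550. A lone replicate was assumed to vary like the other group. The group difference in cells with at least 2 receptors then ranged from 9.73 to 32.5 percentage points in Cd8, 10.9 to 19.9 in Cd4, 6.37 to 17.4 in Foxp3 and 6.63 to 7.60 in co-receptor-negative T cells. With 1 cell per clonotype it was 7.78 in Cd8, 9.38 in Cd4 and 5.98 in co-receptor-negative T cells, without thinning 21.1 in Cd4 and 8.37 in co-receptor-negative T cells, at 1000 UMIs 10.2 and 4.89, with at least 2 UMIs per receptor 4.70 in co-receptor-negative T cells, and without Ctla4 and Cd160 3.17 in Foxp3 and 3.97 in co-receptor-negative T cells.

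The log2 difference of Cd160 in Cd8 T cells ranged from -0.13 (without control replicate 1) to 0.41 and changed to -0.17 with 1 cell per clonotype, -0.075 without the largest clonotype and -0.28 in single-cell clonotypes. Ctla4 in Cd4 T cells ranged from -0.018 (without control replicate 2) to 0.65 and Pdcd1 in Foxp3 T cells from -0.51 to 0.12 (without control replicate 1). Havcr2 between Cd4 and Cd8 T cells ranged from -0.20 (without Runx1::Runx1t1 replicate 1) to 1.05. Between Foxp3 and Cd4 T cells, Pdcd1 changed to 0.13 and Entpd1 to 0.22 with 1 cell per clonotype, Entpd1 ranged from -0.16 to 0.025 (without Runx1::Runx1t1 replicate 2) and Havcr2 changed to 0.10 in DESeq2. Between co-receptor-negative and Cd8 T cells, Pdcd1 changed to 0.019, Tigit to 0.0097 and Ctla4 to 0.13 with 1 cell per clonotype, and Entpd1 ranged from -0.088 (without control replicate 1) to 0.64. The Havcr2 difference of group effects between Cd4 and Cd8 T cells ranged from -1.08 to 0.68 (without Runx1::Runx1t1 replicate 2) and was 0.42 with 1 cell per clonotype. None of these passed the threshold in the fit of all replicates.

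Replicate numbers do not pair the libraries in the sources used here. Deviations of same-numbered replicates correlated at 0.281 in Cd8, 0.141 in Cd4, 0.136 in Foxp3 and 0.404 in co-receptor-negative T cells over 10681 genes, from 2 pairs. With the replicate number as a block, 839 genes were called in Cd8, 428 in Cd4, 615 in Foxp3 and 1711 in co-receptor-negative T cells, and 6 of 7 receptors in Cd8 T cells. The share differences stayed at 21.1, 15.4, 11.9 and 7.12 percentage points by construction.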
